A study of Mus musculus with 16 samples.

Results

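The transcripts of lumbosacral dorsal root ganglia of mice that had received only saline in the bladder were described here from 8 libraries, 1 per animal, of the 16 in the series. They were chosen by the treatment in their labels, 4 from males and 4 from females. All 8 animals were wild-type C57BL6/J mice that received 100 µL of saline in the bladder on days 1, 5 and 9. All were tested with von Frey filaments on day 16, and their dorsal root ganglia of segments L1, L2 and L6 and of S1 and S2 were then collected. Each sex had 2 libraries in batch 1 (males 3 and 4, females 3 and 4) and 2 in batch 2 (males 7 and 8, females 7 and 8). The other 8 libraries, from animals given VEGF165, were used only in an alternative fit. The labels give no age and no untreated animals, so these are levels after instillation of a vehicle. Values are counts-per-million (CPM). Levels of different genes are compared as length-scaled levels, which are CPM divided by the length of the longest annotated transcript and rescaled to the same sum in every library.

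A dorsal root ganglion holds the cell bodies of the sensory neurons that carry touch, temperature, pain and organ filling to the spinal cord. Each neuron body is wrapped by satellite glia, its axon runs with myelinating or non-myelinating Schwann cells, and vessels, fibroblasts and macrophages lie between them. The lumbosacral ganglia include the neurons that innervate the bladder. The genes that define these cells were present in every library: the neuron genes Sncg, Uchl1 and Tubb3, the sensory neuron transcription factors Pou4f1 (219.5 to 372 CPM) and Isl1 (38.6 to 56.9 CPM), and the satellite glia gene Fabp7 (111.2 to 244 CPM). Of 21 neuron genes listed, 20 were matched in the deposited table, and each of these had a mean of at least 10 CPM. In bulk tissue, fewer cells of a type and less RNA per cell cannot be told apart.

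The libraries held 25.7 to 37.1 M counted reads, 25.7 to 32.8 M in batch 1 and 32.8 to 37.1 M in batch 2. Genes of skeletal muscle and spinal cord varied far more than neuron genes. The 17 skeletal muscle genes summed to 1852 to 29217 CPM with a median of 6498, and were highest in male 3 and in female 3 (25009.9 CPM) and lowest in female 8. Without these 2 libraries the muscle sum still spanned 6.25-fold. The 15 spinal cord genes, among them the oligodendrocyte gene Mobp and the inhibitory neuron gene Slc32a1, summed to 23.2 to 1030.5 CPM with a median of 418, with male 3 highest and female 4 lowest. Male 8 (60.5 CPM) and female 8 (105 CPM) were the next lowest. Adipocyte genes (317 to 2046 CPM with a median of 778), red blood cell genes (1190.4 to 4624 CPM with a median of 1977) and genes of lymphocytes and granulocytes (399 to 2497 CPM with a median of 749.9) were each highest in female 3. By contrast, the neuron sum ranged from 24361 to 34569 CPM with a median of 26937, a 1.42-fold range. Sums of the other cell lists spanned 1.34-fold (large-diameter neurons) to 6.26-fold (lymphocytes and granulocytes), with 2.78-fold for macrophage and 2.90-fold for mural genes. The part of neighbouring tissues in the levels of other genes was not tested.

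The libraries also differed along transcript length. Protein-coding genes averaging 5 CPM or more were split into 5 classes of equal size by their longest transcript, and the median log2 deviation from the 8-animal mean was taken in each library. In the class with the longest transcripts (at least 5511 bases) this deviation was -0.36 in female 4, -0.21 in male 3, -0.19 in male 4 and -0.18 in female 3, all of batch 1. It was 0.47 in female 7, 0.30 in male 7, 0.22 in female 8 and -0.02 in male 8, all of batch 2. In the shortest class (up to 2067 bases) female 4 was highest at 0.28 and female 7 lowest at -0.20, while male 3 was below 0 in both classes (-0.05 in the shortest). Genes with long transcripts were thus lower in each batch 1 library than in any batch 2 library. Sodium and calcium channel pore genes, with median transcripts of 8419 and 9658 bases, are among them. The spread between animals was also wider for long transcripts, with a median SD of 0.387 on the log2 scale in the longest class against 0.284 in the shortest. The part of this in the animal-to-animal values given below was not tested.

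**Figure D1:**
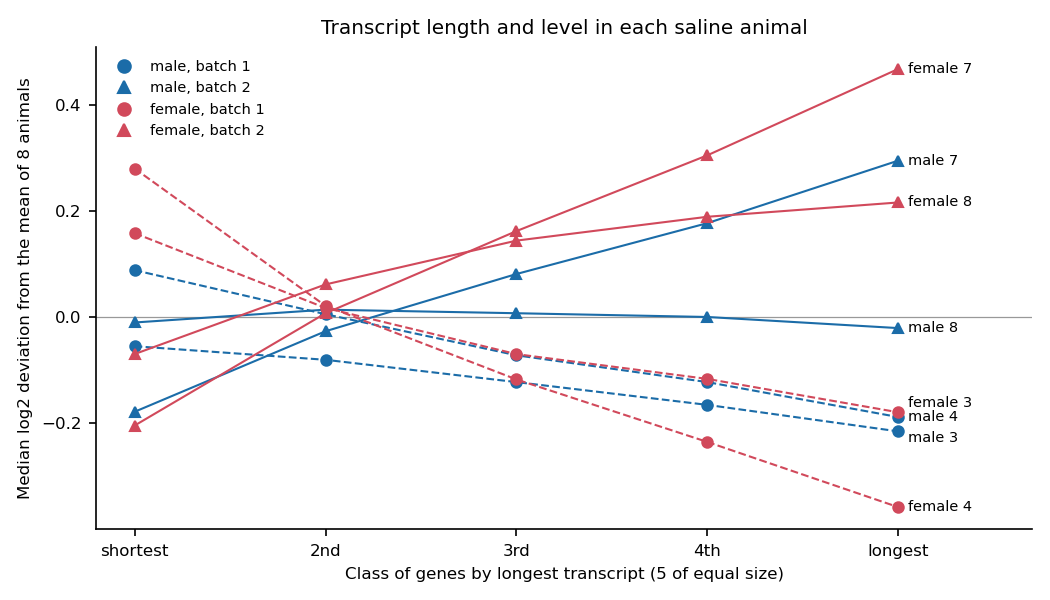
Median log2 deviation of CPM from the mean of the 8 animals (vertical axis) in 5 classes of protein-coding genes ordered by longest transcript (horizontal axis), with 1 line per animal, colour for sex, and dashed circles for batch 1 and solid triangles for batch 2. Female 4 falls from 0.28 to -0.36 and female 7 climbs from -0.20 to 0.47, while male 8 lies between -0.02 and 0.01 in every class.

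A read was counted for 32230 of the 55357 genes listed in at least 1 of the 8 libraries, and 18173 genes had a read in all 8. A mean of at least 1 CPM was reached by 16529 genes, of which 14210 were protein coding, 609 were long non-coding RNAs and 1517 were pseudogenes. Means of at least 100 CPM were reached by 2064 genes and of at least 1000 CPM by 84. The reads were spread over many genes: the 867 genes with most reads held as many as all others together, and the 10 with most reads held 7.43%. A count of 0 allows a level of up to 0.0809 to 0.117 CPM in a single library (3 reads), and up to 0.0118 CPM over the 8 libraries, for counting error only.

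The 30 genes with the highest length-scaled levels were led by mitochondrially encoded genes, with mt-Cytb (26731 ± 5232, mean ± SD, n = 8), mt-Nd1 and mt-Co1 at the top and 8 such genes among the 30. These code for subunits of the respiratory chain, and nuclear copies can share their reads. The 30 also held 4 genes of the neuron list, namely Sncg, Uchl1, Tubb3 and Prph, with Apoe of satellite glia. The skeletal muscle genes Acta1 and Tnnt3 and the globin Hbb-bs were among them too. The rest were mainly widely expressed genes such as Fth1, Actb, Tuba1a, Hsp90ab1, Ubb and Tmsb4x, besides the prostaglandin D synthase gene Ptgds, and the pseudogenes Gm3788 and Tpt1-ps3, whose reads may come from their parent genes. With the median in place of the longest transcript length, 18 of the 30 remained among the 30 highest, and by CPM 21 did.

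Sncg, which codes for gamma-synuclein, a small presynaptic protein abundant in peripheral sensory neurons, was the highest nuclear gene by length-scaled level (8718 ± 2222). Its CPM ranged from 2419 to 5688 CPM with a median of 3314 (gene ENSMUSG00000023064, chr14:34092231-34096747 in mm39). Female 4 was highest and male 3 lowest. Apoe, the lipid carrier made by satellite glia and macrophages, followed at a length-scaled level of 8464 ± 1909 and ranged from 4152 to 9068 CPM with a median of 5414, again with female 4 highest. Both genes were thus highest in the library in which long transcripts were lowest. In contrast Acta1, the skeletal muscle actin, ranged from 430.2 to 7574 CPM with a median of 1556, a 17.6-fold range.

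**Figure D2:**
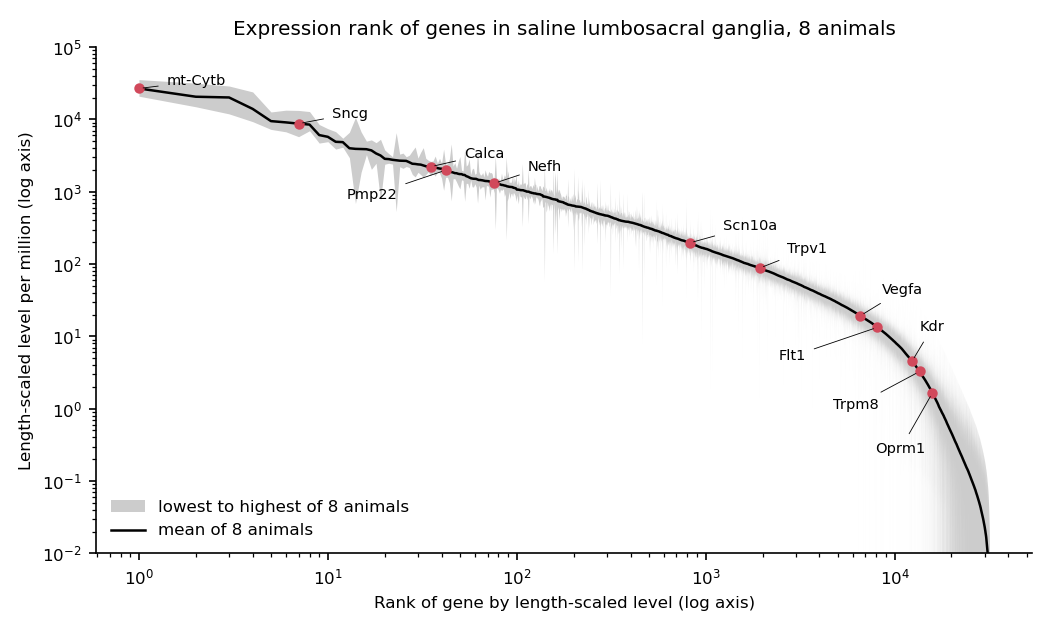
Length-scaled level (vertical log axis) of every gene detected, by rank (horizontal log axis); the line is the mean of the 8 saline animals, the band runs from the lowest to the highest animal, and points mark genes named in the text. Sncg is in the first 10, Calca is at rank 35, and Oprm1 is on the steep end of the curve.

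By length-scaled level Sncg was the highest of the neuron list. It was followed by Uchl1 (5732 ± 959), a ubiquitin hydrolase marking neurons, Tubb3 (3866 ± 641), the neuronal beta-tubulin, and Prph (2683 ± 438), the intermediate filament peripherin of small sensory neurons. This order held in all 8 animals. Nefm, Nefl and Nefh, the medium, light and heavy neurofilaments of larger axons, reached length-scaled levels of 2077 ± 319, 1419 ± 134 and 1305 ± 213. The Nefm to Nefh ratio of length-scaled levels was 1.59 ± 0.0555 (mean ± SD, n = 8) and ranged only from 1.55 to 1.70 between animals. Stmn2, a microtubule regulator, had the smallest spread of the neuron list (SD 0.13 on the log2 scale) and ranged from 1278 to 1668 CPM with a median of 1445.

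Genes of small-diameter neurons were all detected. Calca, the gene of the peptide CGRP, which marks peptidergic nociceptors, ranked 35 of all genes with a length-scaled level of 2213 ± 393, and its CPM ranged from 784 to 1302 CPM with a median of 985 (chr7:114230713-114235593 in mm39). The highest value was in female 4 and the lowest in male 7. Per length, Calca was 8.80 ± 1.21 times its paralogue Calcb (range 7.30 to 10.9) and 12.6 ± 2.17 times Tac1, the gene of substance P. All 13 genes of the peptidergic list had a mean of at least 1 CPM, and their sum ranged from 1639 to 2379.8 CPM with a median of 1974. The 16 genes of the non-peptidergic and itch list also all reached 1 CPM, and their sum ranged from 650.0 to 1414 CPM with a median of 949.

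Among the non-peptidergic genes, Mrgprd, an orphan receptor that marks skin-projecting nociceptors, ranged from 38.5 to 126 CPM with a median of 79.4. The 4 batch 1 animals were at 38.5 to 72.0 CPM and the 4 batch 2 animals at 86.8 to 126 CPM. In the limma comparison of the batches given below, 8.1% of all genes tested passed. Mrgprd was among them, but did not pass when male 7, female 7 or female 8 was left out. P2rx3, the ATP-gated channel of the same neurons, ranged from 61.5 to 165 CPM with a median of 98.1, and Sst, the somatostatin gene of an itch population, from 23.1 to 58.1 CPM with a median of 45.5. Nppb, a peptide of the same itch neurons, ranged from 5.82 to 19.7 CPM with a median of 10.5, and Mrgpra3, a chloroquine receptor, ranged from 7.26 to 16.6 CPM with a median of 11.5. Th, the tyrosine hydroxylase gene that marks low-threshold C-fibre neurons, ranged from 104 to 196 CPM with a median of 151. Large-diameter neuron genes summed to 3475 to 4640.0 CPM with a median of 4051. In this group Pvalb, a calcium-binding protein of proprioceptors and of fast muscle, ranged from 139 to 1222 CPM with a median of 253, with 1222 CPM in female 3 and 1059.7 CPM in male 3, the 2 libraries with most muscle reads.

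The 16 genes of myelinating Schwann cells summed to 10602 to 15762 CPM with a median of 13247, with male 3 highest and female 8 lowest. By length-scaled level Pmp22 (1979 ± 265) stood above Mbp (1766 ± 463) in 6 of 8 animals. Both code for proteins of compact myelin. Mbp is also made by oligodendrocytes of the spinal cord, and it ranged from 2782 to 6219 CPM with a median of 3734. Pmp22 was steadier and ranged from 1469 to 1862 CPM with a median of 1682. Egr2, the transcription factor of myelination, was at 18.02 to 43.2 CPM with a median of 23.6.

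Satellite glia genes summed to 6468 to 10937 CPM with a median of 7687, of which Apoe alone gave 4152 to 9068 CPM. Glul, the glutamine synthetase gene, had a length-scaled level of 492 ± 88.9, and Fabp7, a fatty-acid-binding protein of satellite glia, 383 ± 87.1. Fabp7 ranged from 111.2 to 244 CPM with a median of 146. The potassium channel gene Kcnj10, which sets glial potassium buffering, ranged from 48.6 to 183 CPM with a median of 108, and Gja1, the gap junction protein connexin 43, from 22.8 to 72.5 CPM with a median of 48.2, the largest spreads of the satellite glia list (SD 0.70 and 0.60 on the log2 scale). Both are also genes of astrocytes, and both were low in female 4 and male 8, the libraries with the lowest spinal cord sums. Of the pan-glial genes, S100b ranged from 541 to 904 CPM with a median of 688, and Sox10 from 137 to 232 CPM with a median of 170.0. Ngfr, the neurotrophin receptor p75 of neurons and non-myelinating Schwann cells, ranged from 560.5 to 1278 CPM with a median of 917.

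The 17 endothelial genes summed to 407 to 595 CPM with a median of 496, and all 17 had a mean of at least 1 CPM. By length-scaled level the highest were Ly6c1 (87.0 ± 12.8), Cldn5 (57.9 ± 11.2), a tight junction gene of barrier vessels, and Plvap (44.6 ± 10.8), a gene of fenestrated endothelium. Pecam1, the adhesion molecule of all endothelium, was steady at 32.1 to 43.1 CPM with a median of 38.2 (chr11:106545043-106641455 in mm39), and Esam, another junction gene, at 14.1 to 18.7 CPM with a median of 17.7. Among mural genes Rgs5 of pericytes ranged from 129 to 225 CPM with a median of 182, Acta2 of smooth muscle from 56.4 to 153 CPM with a median of 83.8 and Pdgfrb from 38.5 to 70.0 CPM with a median of 63.9. Des, which is also a skeletal muscle gene, ranged from 66.8 to 1172 CPM with a median of 286 with male 3 highest. Of 6 lymphatic genes, 3 had a mean of at least 10 CPM. By length-scaled level they ran from Pdpn (46.9 ± 12.8) and Ccl21a (31.9 ± 10.9) to Lyve1 (6.04) and Prox1 (0.545). Lyve1, a hyaluronan receptor, was at 3.92 to 13.4 CPM with a median of 6.81, and Prox1, the transcription factor of lymphatic identity, at 0.499 to 4.22 CPM with a median of 1.55.

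Fibroblast genes summed to 4031 to 5891 CPM with a median of 5076. Apod, a lipocalin of nerve fibroblasts, was the highest by length-scaled level (2118 ± 252), and Dcn, the proteoglycan decorin, was the steadiest at 649.6 to 801 CPM with a median of 711 (SD 0.10 on the log2 scale). The collagen genes Col1a1 and Col3a1 varied more, from 289.6 to 1289 CPM and from 144 to 514 CPM. Macrophage genes summed to 348 to 965 CPM with a median of 554, with Lyz2 at 106 to 432 CPM with a median of 209, C1qa at 47.8 to 135 CPM with a median of 59.1 and Csf1r, the receptor that macrophages depend on, at 33.9 to 60.9 CPM with a median of 47.2. Female 3 had the highest macrophage sum. Granulocyte genes were led by S100a8, which ranged from 176 to 1164 CPM with a median of 349, and S100a9, which ranged from 189 to 1055 CPM with a median of 325, with female 3 highest in both. T-cell genes were detected at a few CPM, with Cd4 at 1.16 to 9.91 CPM with a median of 3.55, Trac at 0.721 to 5.91 CPM with a median of 1.92, Cd3e at 0.339 to 4.51 CPM with a median of 1.497 and Cd8a at 0 to 2.00 CPM with a median of 0.443. Mast cell genes were detected, with Mcpt4 at 7.01 to 15.1 CPM with a median of 11.6 and Tpsb2 at 5.02 to 23.05 CPM with a median of 10.9.

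**Figure D3:**
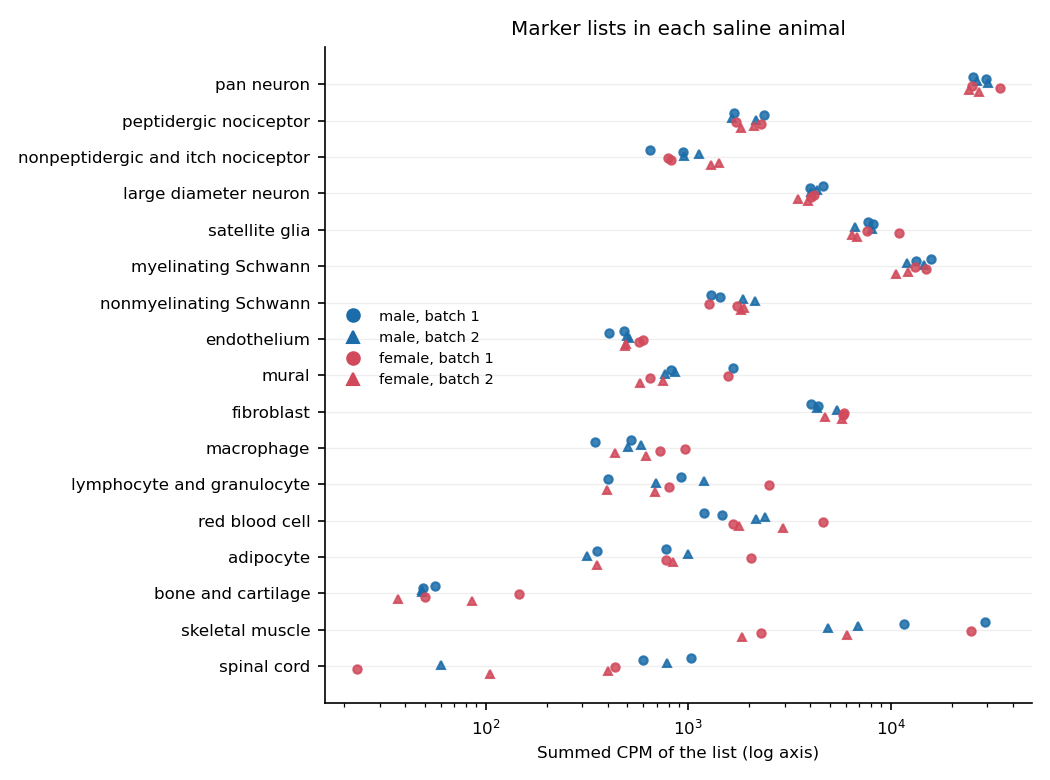
Summed CPM (horizontal log axis) of 17 marker lists in each of the 8 saline animals, with colour for sex and shape for batch. The neuron list spans 1.42-fold, while the skeletal muscle list spans 15.8-fold and the spinal cord list 44.5-fold.

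Voltage-gated sodium channels start and carry the action potential, and their alpha subunits form the pore. By length-scaled level the order was Scn10a (196 ± 53.4), Scn11a (122 ± 31.6), Scn8a (39.4 ± 8.64), Scn7a (23.3 ± 9.02) and Scn9a (19.4 ± 7.76). Scn10a, the gene of the tetrodotoxin-resistant channel Nav1.8 of nociceptors, ranged from 397 to 733 CPM with a median of 604 (ENSMUSG00000034533, chr9:119437522-119548389 in mm39). Male 3 was lowest and female 8 highest. Scn11a, the gene of Nav1.9, ranged from 202 to 414 CPM with a median of 333 and was also lowest in male 3. Scn10a was above Scn11a in all 8 animals, with a ratio of 1.62 ± 0.189 (range 1.39 to 2.00), although the ranges of the pair overlapped. Scn11a lay above Scn8a, the channel of nodes of Ranvier, in all 8 without overlap. Scn7a, a sodium sensor of glia and some neurons, lay above Scn9a, the gene of Nav1.7, in 7 of 8 animals. Scn9a ranged from 52.3 to 136 CPM with a median of 85.4, and the body of its gene overlaps that of another gene over 42.8% of its length. Scn4a, the muscle channel, ranged from 8.66 to 53.8 CPM with a median of 17.9 and was highest in male 3, while Scn2a and Scn3a had means of 5.19 and 1.47 CPM.

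Of the sodium channel beta subunits, Scn4b (length-scaled level 119 ± 26.4) lay above Scn3b (38.7) in every animal without overlap. The HCN channels, which carry the pacemaker current of sensory neurons, were led by Hcn2 (226 ± 29.3), and Hcn3 (22.6 ± 5.30) came next in all 8 animals. Of 39 voltage-gated potassium channel genes, 35 had a mean of at least 1 CPM, 25 of at least 10 CPM, and Kcnv2 had no read in any library. Among the highest by length-scaled level were Kcnd1 (95.6 ± 30.3), Kcns1 (75.9 ± 15.1), a silent subunit, and Kcnh2 (67.9 ± 8.52). Their order changed between animals, with Kcns1 above Kcnh2 in 6 of 8. Kcna2, a channel of the juxtaparanode, had a length-scaled level of 59.7 ± 19.7 and ranged from 189.6 to 425 CPM with a median of 324. Kcna1 varied most of the family that reached 5 CPM (SD 0.90 on the log2 scale) and ranged from 16.4 to 87.5 CPM with a median of 28.8.

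Of 14 two-pore potassium channel genes, 11 reached 1 CPM, and Kcnk1 was highest (length-scaled level 65.5 ± 7.09), above Kcnk12 (28.3 ± 5.055) in every animal without overlap. Kcnk18, the gene of TRESK, a background channel of sensory neurons, was at 5.46 to 8.87 CPM with a median of 7.67. Among calcium channel pore genes Cacna1a (22.4 ± 5.81, length-scaled) and Cacna1h (19.3 ± 5.00), the low-threshold channel of sensory neurons, stood close, with Cacna1a higher in 7 of 8 animals. Cacna1b, the presynaptic N-type channel, had a length-scaled level of 16.2 ± 6.99. Cacna1s, the muscle channel, ranged from 5.46 to 158 CPM with a median of 40.2, a 28.9-fold range, with male 3 highest. The auxiliary subunits Cacnb3 (373 ± 65.1) and Cacng7 (214 ± 36.5) were higher per length than any pore gene, and Cacna2d1, a target of gabapentin, was at 46.9 to 85.7 CPM with a median of 65.4.

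TRP channels include the sensors of heat, cold and irritants. Of 28 TRP genes, 19 had a mean of at least 1 CPM, and Trpc2 and Trpv5 had no read. Trpv1, the capsaicin and heat receptor, was the highest by length-scaled level (87.8 ± 25.9) and ranged from 98.9 to 193 CPM with a median of 130.3 (chr11:73125118-73152069 in mm39). Female 7 was highest and female 3 lowest. The lysosomal channel Mcoln1 (63.7 ± 8.53) and Trpv2 (52.5 ± 8.58) came next, and Trpv1 was above Mcoln1 in 7 of 8 animals. Trpa1, the irritant receptor, had a length-scaled level of 16.2 ± 8.70 and ranged from 17.3 to 57.9 CPM with a median of 27.7. The Trpv1 to Trpa1 ratio of length-scaled levels was 6.15 ± 1.87 and lay above 1 in all 8 animals. Trpm8, the cold and menthol receptor, was lower (3.27 ± 2.87, length-scaled).

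Trpm8 was also the only TRP gene of at least 5 CPM with an SD above 1 on the log2 scale (1.21). Its CPM was 5.32, 3.43, 7.01 and 3.32 in males 3, 4, 7 and 8, and 1.205, 1.04, 13.6 and 12.9 in females 3, 4, 7 and 8. The 2 batch 1 females were lowest and the 2 batch 2 females highest, with the males between them. Trpv4, an osmotically sensitive channel also found in bladder lining, was at 2.66 to 5.93 CPM with a median of 3.41, and Trpm3, a second heat sensor, at 21.3 to 55.1 CPM with a median of 29.3.

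**Figure D4:**
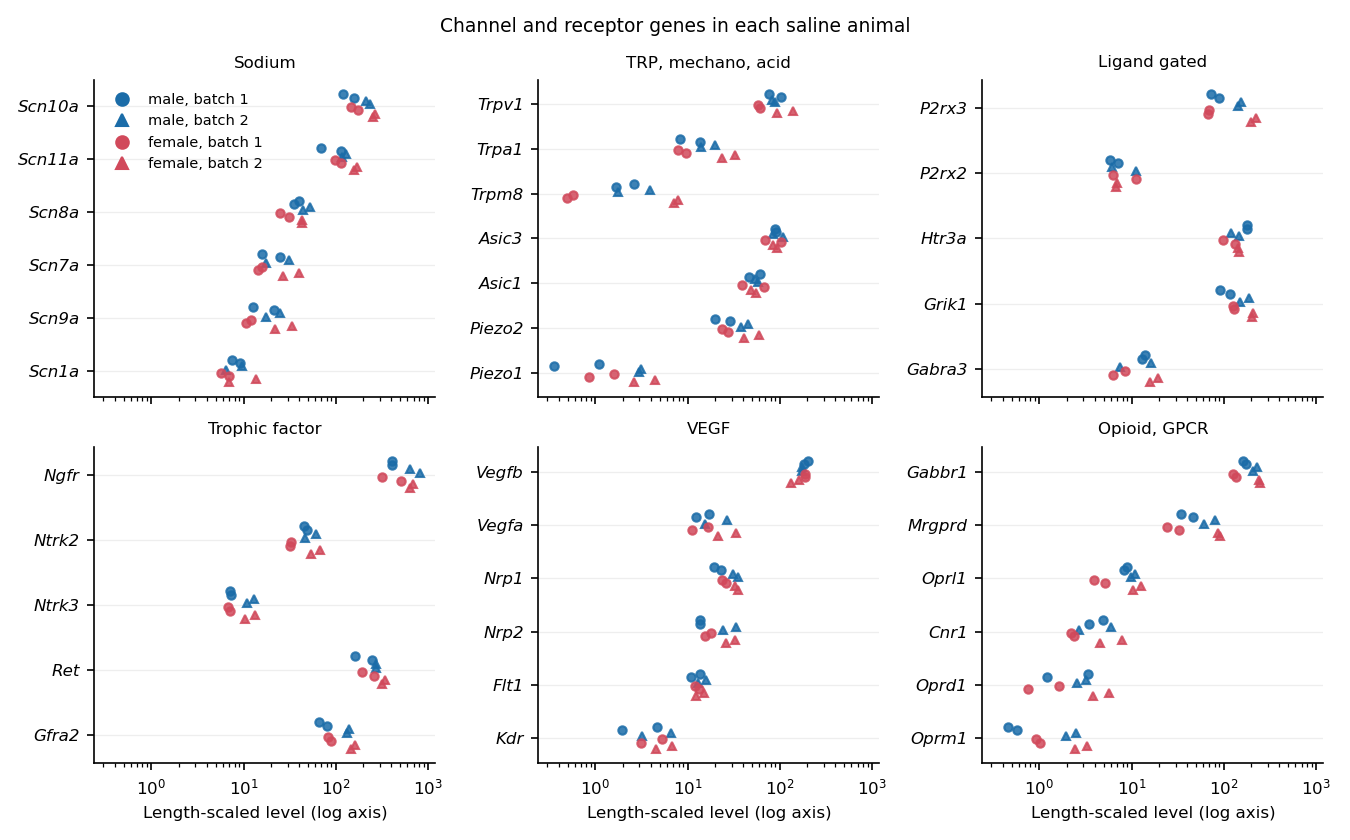
Length-scaled level (horizontal log axis) of 35 channel and receptor genes in each of the 8 saline animals, with colour for sex and shape for batch. Scn10a leads the sodium channels shown in all 8 animals, and Trpm8 spreads most among the TRP channels shown.

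Piezo2, the mechanically gated channel of touch and of bladder stretch, ranged from 106 to 264 CPM with a median of 168, with male 3 lowest and female 7 highest. Its length-scaled level (35.5 ± 13.2) was 25.4 ± 23.2 times that of Piezo1 (range 12.9 to 80.7), whose own CPM ranged from 1.43 to 15.0 CPM with a median of 8.04. Among acid-sensing channels Asic2 (91.9 ± 15.5) and Asic3 (90.2 ± 12.3) had similar length-scaled levels, with Asic2 higher in 6 of 8 animals. Asic3 was 1.69 ± 0.173 times Asic1 and above it in all 8, and Asic5 had no read. Tmem63b, a stretch- and osmosensitive channel, was the highest of the list (111.5 ± 15.0). Of the chloride list, Slc12a2, the chloride importer of sensory neurons, ranged from 32.6 to 76.3 CPM with a median of 53.2. Slc12a5, the chloride exporter of central neurons, had no read in female 4 and 39.3 CPM in male 3, and followed the spinal cord list at both ends.

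Ligand-gated receptors were led per length by Grik1, a kainate receptor subunit of C fibres (152 ± 42.8), Htr3a, the serotonin-gated channel (144 ± 28.1), and P2rx3 (127 ± 61.3). Grik1 ranged from 165 to 321 CPM with a median of 245 and Htr3a from 103 to 186 CPM with a median of 135. P2rx3 was 17.7 ± 9.71 times P2rx2 per length, and lay above P2rx4 (26.9 ± 4.66) in all 8 animals without overlap. AMPA receptor subunits were lower, with Gria1 at 14.4 ± 5.49 and Gria2 at 1.25 ± 0.586 (length-scaled). Grin1, the shared NMDA receptor subunit, was at 90.9 to 158 CPM with a median of 110.1. Grin2a and Grin2b, which central neurons express, had means of 1.49 and 2.06 CPM and no read in at least 1 library each.

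GABA-A receptor genes were low: 10 of 19 reached 1 CPM, among them Gabra3 (length-scaled level 12.6 ± 4.72). The metabotropic GABA-B subunits were higher. Gabbr1 had a length-scaled level of 190.1 ± 47.0 and was 2.69 ± 0.470 times Gabbr2, with which it forms the receptor. Of nicotinic receptor genes Chrnb2 (39.3 ± 9.12) and Chrna6 (30.9 ± 10.3) were highest, and Chrna3, a subunit of autonomic ganglia and small sensory neurons, was at 17.1 to 38.5 CPM with a median of 21.3.

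Receptors for nerve growth factors separate the classes of sensory neurons. By length-scaled level Ngfr (554 ± 171) lay above Ret (259 ± 59.8) in all 8 animals, although their ranges overlapped, and Gfra2 was at 112.4 ± 36.7. Ret, the receptor tyrosine kinase of GDNF ligands, ranged from 433 to 767 CPM with a median of 671. Ntrk2 (TrkB) was 5.202 ± 0.896 times Ntrk3 (TrkC) and above it in all 8 animals. Gfral had a read in only 1 library.

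Opioid and cannabinoid receptor genes were all low. Oprl1, the nociceptin receptor, was highest (8.81 ± 2.97, length-scaled) and ranged from 6.18 to 16.2 CPM with a median of 13.9. Cnr1, the cannabinoid receptor of neurons, ranged from 6.61 to 18.9 CPM with a median of 10.6, and Oprd1, the delta opioid receptor, from 1.52 to 9.49 CPM with a median of 5.11. Oprm1, the mu opioid receptor and target of morphine, ranged from 0.539 to 3.32 CPM with a median of 1.69, and genes overlapping it cover 55.7% of its body. Of 50 G protein-coupled receptor genes of pain and itch, 41 reached 1 CPM. Per length the highest after Gabbr1 were F2rl2 (92.6 ± 23.1), of the protease-activated receptor family, Gabbr2 (74.2 ± 28.4), Mrgprd (57.2 ± 26.6) and Lpar3 (53.5 ± 17.96), a lysophosphatidic acid receptor. Ptgir, the prostacyclin receptor, was at 41.0 to 69.2 CPM with a median of 60.4, Bdkrb2, the constitutive bradykinin receptor, at 6.11 to 11.8 CPM with a median of 8.30, and Bdkrb1, the inducible one, at a mean of 0.141 CPM. Hrh4 had no read.

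All 20 cytokine receptor genes reached 1 CPM. Il6st, the shared gp130 subunit, had the highest mean length-scaled level (93.3 ± 44.7) and ranged from 233 to 607 CPM with a median of 318, and lay above Tnfrsf1a in 5 of 8 animals. Osmr (22.1 to 50.1 CPM with a median of 29.2) and Il31ra (3.54 to 23.7 CPM with a median of 9.44), which form the receptor of the itch cytokine IL-31, both reached their highest value in female 7. Steroid receptor genes were led by Nr3c1, the glucocorticoid receptor (11.0 ± 3.01, length-scaled). Esr1, the oestrogen receptor alpha, ranged from 5.12 to 14.1 CPM with a median of 10.6. Esr2 had a mean of 0.190 CPM.

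The VEGF ligands act on Flt1, Kdr and Flt4, with neuropilins and plexins as partners. Among the ligands Vegfb, which binds Flt1, was highest by length-scaled level (175 ± 21.3) and was 10.4 ± 4.25 times Vegfa. Vegfa, the gene of the growth factor given to the other animals of the study, ranged from 19.4 to 47.4 CPM with a median of 29.4 (chr17:46327919-46343296 in mm39). Female 7 was highest and female 4 lowest. Flt1, the high-affinity receptor of endothelium, was at 37.0 to 46.9 CPM with a median of 42.9, with an SD of 0.14 on the log2 scale. Kdr, the main signalling receptor, was lower and ranged from 5.62 to 17.2 CPM with a median of 12.7. Flt1 was 3.34 ± 1.25 times Kdr per length (range 2.23 to 5.697) and above it in all 8. Nrp1 ranged from 34.8 to 58.2 CPM with a median of 48.7 and Nrp2 from 45.3 to 97.3 CPM with a median of 67.6, and Nrp1 exceeded Nrp2 per length in 6 of 8 animals. Plxnd1 (70.6 ± 15.1) was above Nrp1 (28.4 ± 6.08) in all 8 animals without overlap, and Vegfc (1.99 CPM) and Vegfd (3.90 CPM) were low.

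Among peptide genes Calca was followed per length by Chga (385 ± 50.1), a granule protein, without overlap in any animal. Below Calcb, the genes Nmb (230.3 ± 48.6), Scg2 (219.9 ± 46.4), Tac1 (179 ± 41.9) and Vgf (169 ± 39.8) were close, and neighbours changed order between animals. Chgb was the steadiest peptide gene at 129 to 164 CPM with a median of 133. Gal, the galanin gene, was at 19.96 to 46.1 CPM with a median of 30.3, and Npy at a mean of 3.42 CPM. Both are known to be low in intact ganglia. By length-scaled level, however, Gal (83.1) was close to Trpv1 (87.8), which lay above it in 4 of 8 animals. Penk, the enkephalin gene, was at 82.2 CPM in male 3 and 122 CPM in male 4 against 22.2 to 42.2 CPM in the other 6 animals. Cck had the largest spread of the peptide genes of at least 5 CPM (SD 1.35), from 0.609 CPM in male 8 to 13.8 CPM in male 4. Spinal cord neurons also express Penk and Cck. The spinal cord sum was 1030.5 CPM in male 3, 789 CPM in male 7 and 599 CPM in male 4. It was 60.5 CPM in male 8 and lowest in female 4 (23.2 CPM). The part of spinal cord in the Penk and Cck values was not tested. Vip had a mean of 0.140 CPM. Glutamate is the transmitter of sensory neurons, and its vesicle transporter genes were Slc17a7 (183 ± 36.0), Slc17a6 (39.0 ± 16.5) and Slc17a8 (3.32 ± 1.70), as length-scaled levels. Slc17a7 exceeded Slc17a6 5.63 ± 2.87 times (range 2.22 to 9.80). Slc32a1, the GABA and glycine transporter of inhibitory neurons, ranged from 0.0305 to 28.7 CPM with a median of 9.20, lowest in the library with the lowest spinal cord sum. Among immediate early genes Jun (104 to 142 CPM with a median of 119) was steady. Fos was at 3.38 to 9.49 CPM with a median of 5.18, and Atf3, a marker of axon injury, at 6.99 to 17.6 CPM with a median of 9.69.

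The spread between animals was taken as the SD of log2(CPM + 0.5) over the 8 libraries, for the 11681 protein-coding genes averaging 5 CPM or more. Its median was 0.305, with quartiles of 0.222 and 0.422. The SD that counting error alone gives had a median of 0.0484. The split by batch took a median of 29.7% and the split by sex 6.18% of a gene's variance, and the median residual SD after both was 0.245. These shares were not corrected for the part that any split of 8 animals into 2 groups takes by chance. For 41.3% of the genes the highest animal had at least 2 times the value of the lowest, and for 18.4% it had under 1.5 times. An SD above 1 was found for 241 of the 11681 genes (170 without male 3 and female 3). Of these, 16 were in the skeletal muscle list, 10 in the spinal cord list and 4 in the adipocyte list. Those lists had 16, 10 and 8 members averaging 5 CPM or more. None were in the neuron, myelinating Schwann, satellite glia or endothelial lists, which had 20, 16, 12 and 17 such members. Male 3 was the highest library for 130 of the 241 and female 3 for 62. The share of all 11681 genes that were highest in these libraries was not computed.

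After the Y-linked gene Eif2s3y, the genes of largest spread were mostly of skeletal muscle and spinal cord. Myh1, a myosin heavy chain of fast fibres whose gene body is overlapped over 54.3% of its length, ranged from 8.87 CPM in female 8 to 1433 CPM in male 3. Myh2, Myh7, Myl2, Myl3, Tnnt1 and Mb of slow and oxidative fibres were in the same group, as were Slc12a5, Slc32a1 and Olig1 of spinal cord. Their order of libraries differed. Myh1, Myh2 and Mb were highest in male 3, whereas Myh7, Myl2, Myl3 and Tnnt1 were highest in female 3. The spinal cord sum was highest in male 3, male 7 and male 4. The smallest spread was that of Letm1, which codes for a mitochondrial cation exchanger. It ranged from 129 to 141 CPM with a median of 136 (SD 0.04). Also among the 10 steadiest were Psmd11, a proteasome subunit, Coq2 of ubiquinone synthesis, Usp10, a deubiquitinase, and Cacna2d3, a calcium channel subunit, which ranged from 35.4 to 40.7 CPM with a median of 38.9. Lists differed in the median SD of their members of at least 5 CPM: 0.23 for neuron genes, 0.295 for endothelium, 0.30 for myelinating Schwann cells, 0.34 for sodium channel pores and 0.50 for the non-peptidergic and itch genes, against 1.51 for skeletal muscle and 1.85 for spinal cord.

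**Figure D5:**
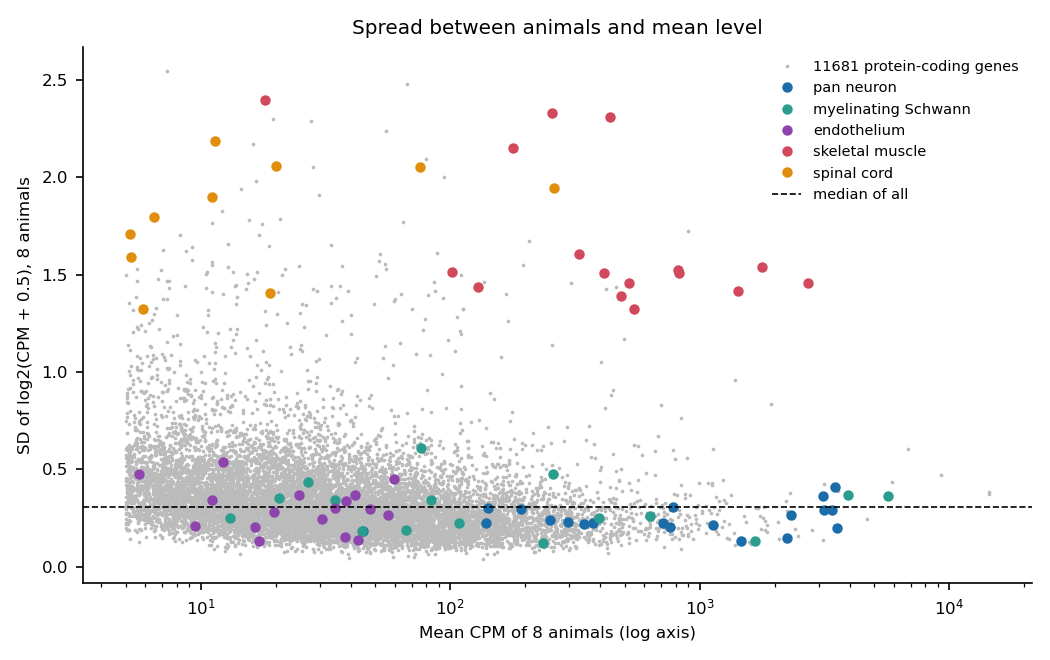
SD of log2(CPM + 0.5) over the 8 animals (vertical axis) against mean CPM (horizontal log axis) for 11681 protein-coding genes, with members of 5 marker lists in colour and the median of all genes dashed. The muscle and spinal cord genes shown lie above 1, and the neuron genes between 0.13 and 0.41, around the median of 0.305.

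The promoters of 4 of these genes are shown because they span the range of level and spread: Prph, abundant and neuronal, Scn10a, the leading sodium channel of nociceptors, Myh1, among the most variable, and Letm1, the steadiest. Each window runs from 250 bases before to 50 after the annotated start (RefSeq, GRCm38.p6), 5′ to 3′ on the gene's strand, with the letters TATAAA in capitals. They are Prph chr15:99054924-99055223 on the plus strand, Scn10a chr9:119718983-119719282 on the minus strand, Myh1 chr11:67199852-67200151 on the plus strand and Letm1 chr5:33782668-33782967 on the minus strand.
Prph: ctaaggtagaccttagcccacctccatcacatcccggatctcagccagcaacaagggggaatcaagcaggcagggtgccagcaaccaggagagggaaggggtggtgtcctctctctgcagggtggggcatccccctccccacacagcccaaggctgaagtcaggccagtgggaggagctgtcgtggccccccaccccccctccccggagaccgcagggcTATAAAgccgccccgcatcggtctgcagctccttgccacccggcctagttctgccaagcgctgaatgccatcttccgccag
Scn10a: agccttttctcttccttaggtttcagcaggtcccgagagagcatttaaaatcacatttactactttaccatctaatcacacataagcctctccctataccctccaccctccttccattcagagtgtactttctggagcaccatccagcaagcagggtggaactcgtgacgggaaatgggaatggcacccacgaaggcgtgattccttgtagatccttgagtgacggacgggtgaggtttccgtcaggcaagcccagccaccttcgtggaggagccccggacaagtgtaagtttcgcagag
Myh1: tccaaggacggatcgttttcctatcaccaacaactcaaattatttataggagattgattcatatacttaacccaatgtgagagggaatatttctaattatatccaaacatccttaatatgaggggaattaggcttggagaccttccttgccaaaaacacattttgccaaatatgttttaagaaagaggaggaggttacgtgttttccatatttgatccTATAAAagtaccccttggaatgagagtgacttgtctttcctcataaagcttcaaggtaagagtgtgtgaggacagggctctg
Letm1: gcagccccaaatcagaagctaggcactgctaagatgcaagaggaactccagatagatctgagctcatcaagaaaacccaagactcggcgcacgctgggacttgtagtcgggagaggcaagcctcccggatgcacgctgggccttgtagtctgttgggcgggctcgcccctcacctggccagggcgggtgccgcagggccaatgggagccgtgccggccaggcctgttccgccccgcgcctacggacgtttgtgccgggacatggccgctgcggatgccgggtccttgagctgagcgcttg
The letters TATAAA stood 31 bases before the start in Prph and 32 before it in Myh1, and were in neither of the other windows on either strand. The Myh1 window also held them once on the other strand.

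Over genes with a single annotated window, TATAAA on the gene's strand was in 9.49% of all 22862 windows of 300 bases, and in 4.15% of the 7278 such windows matched by symbol to the 11681 protein-coding genes averaging 5 CPM or more. Among these 7278, it was in 20 of the 100 of largest spread and in 2 of the 100 of smallest spread. It was in 16 of the 100 genes of highest length-scaled level. On either strand the counts were 29, 3 and 21 of 100, against 6.65% of the 7278. At 40 to 21 bases before the start they were 11, 0 and 5 of 100, against 1.15%. The median GC content was 53.7% in the windows of largest spread and 63.5% in those of smallest spread. Skeletal muscle and spinal cord genes are among those of largest spread, as given above, and their part in these counts was not tested. A match is a run of letters, not a shown binding site.

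Saline females and males were compared with limma on log2(CPM + 0.5) with batch as a covariate, 4 animals each. Of 18248 genes tested, 10 passed an adjusted p of 0.05 (0.0548%), 6 higher (0.0329%) and 4 lower (0.0219%) in females, and 1090 had an unadjusted p under 0.05. With the animals' number as a block, 7 passed, 3 higher and 4 lower. Of the 10, 6 lie on the X or Y chromosome. Xist, the RNA that silences an X chromosome, was at 37.4, 22.5, 60.1 and 24.8 CPM in females 3, 4, 7 and 8 and had no read in males, which makes it at least 1470-fold higher against a floor of 3 reads over the group. Eif2s3y, a Y-linked translation factor, was at 16.8, 13.2, 15.5 and 12.8 CPM in males 3, 4, 7 and 8, with 11 reads in female 7 and none in the other females. Ddx3y, a Y-linked RNA helicase gene, was at 10.03, 9.42, 13.7 and 5.88 CPM in the males and had no read in females, at least 428-fold higher in males. Kdm5d, a Y-linked demethylase gene, was at 4.85, 4.49, 6.75 and 3.72 CPM in the males with 1 read in female 8. Gm29650, also on the Y chromosome, was at 2.05, 3.36, 2.53 and 3.11 CPM in the males and had no read in females. Kdm5c, which escapes X inactivation, was at 32.4, 32.4, 43.1 and 43.0 CPM in the males and 67.5, 67.5, 71.9 and 67.2 CPM in the females. The groups did not overlap (log2 difference 0.87, SE 0.125, limma adjusted p = 0.0496), but with the block the limma adjusted p was 0.132, and the call was lost without any 1 of the 8 animals (0.0613 to 0.309).

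The other 4 genes higher in females code for matrix or secreted proteins. Col3a1, the type III collagen, was at 149, 144, 223 and 219 CPM in males 3, 4, 7 and 8 and at 328, 333, 372 and 514 CPM in females 3, 4, 7 and 8. All 4 females were above all 4 males (log2 difference 1.08, SE 0.125, limma adjusted p = 0.0109). Sfrp4, a secreted Wnt antagonist, was at 52.1, 53.9, 84.0 and 65.7 CPM in males and 135, 159, 135 and 193 CPM in females, again without overlap (1.29, SE 0.153, limma adjusted p = 0.0112). Eln, the elastin gene, was at 21.9, 23.6, 22 and 33.3 CPM in males and 67.4, 98.1, 53.4 and 59.0 CPM in females (1.43, SE 0.206, limma adjusted p = 0.0496). Myoc, a secreted glycoprotein, was at 44.4, 32.1, 77.4 and 96.4 CPM in males and 92.1, 106, 173 and 149 CPM in females, with female 3 below male 8 (1.13, SE 0.159, limma adjusted p = 0.047). With the animals' number as a block the limma adjusted p was 0.0188 for Col3a1, 0.0324 for Sfrp4, 0.0586 for Eln and 0.0918 for Myoc. Within batch 1 the log2 difference was 1.17 for Col3a1 and 1.46 for Sfrp4, and within batch 2 it was 0.98 and 1.12, and none of these passed (adjusted p 0.0885 to 0.744). The call of Col3a1 was lost without male 3, 4 or 7 or female 8, and that of Sfrp4 without male 3 or 4 or female 8, with adjusted p-values of 0.0674 to 0.1. Without male 3 and female 3 together it was 0.248 for Col3a1 and 0.26 for Sfrp4. The calls of Eln and Myoc were lost without any 1 animal other than male 8 (adjusted p 0.0674 to 0.341). Of 12 fibroblast genes 10 lay above 0 (median log2 difference 0.51), against 61.9% of all genes tested (median 0.07), and of these Col3a1 passed. Lists of other cells lay above 0 too, with 14 of 16 macrophage genes (0.43), 13 of 13 lymphocyte and granulocyte genes (0.465), 6 of 6 red blood cell genes (0.56) and 7 of 8 bone and cartilage genes (0.63), none of which passed. Their part in the fibroblast values was not tested. Col3a1 was also called higher in batch 2 over single animals.

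No member of the neuron, glia, endothelial, ion channel or receptor lists passed between the sexes in this limma fit, which does not show that their levels were equal. Calca had a log2 difference of 0.07 (SE 0.185), Scn10a of 0.18 (SE 0.131), Trpv1 of -0.09 (SE 0.197) and Esr1 of -0.05 (SE 0.354). All 16 muscle genes tested (median -1.11), all 13 spinal cord genes tested (-1.42) and all 13 mitochondrial genes (-0.44) lay below 0 in females, and none passed. The sums of all 3 lists differed between animals of 1 sex, and male 3 had the highest spinal cord and mitochondrial sums.

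The batches were compared in the same fit. With 1478 genes past the threshold (8.1% of 18248; 1248 or 6.84% higher and 230 or 1.26% lower in batch 2), more genes passed between the batches than between the sexes. On median-of-ratios scaling 910 passed, 523 higher and 387 lower, and the median of all genes moved from 0.112 to -0.00444 on the log2 scale, so differences are best read relative to that shift. The count depended on single libraries: it was 65 without male 7, 107 without female 7, 160 without female 8, 635 without female 3, 684 without female 4, 789 without male 4, 817 without male 3 and 3154 without male 8. Without male 3 and female 3 together 85 passed. This fit takes the 8 animals as independent. When the male and female of a number were averaged, since the numbers were taken to pair the animals, each batch had 2 values and 4 genes passed, all higher in batch 2: Malat1, Rn18s-rs5, Lars2 and ENSMUSG00002076173, with 3950 at an unadjusted p under 0.05. The other calls named here between the batches were made over single animals and did not pass over these pair means. The batches also differed in depth, in Rn18s-rs5 (a ribosomal RNA gene, 381 to 601 CPM in batch 1 and 991 to 4209 CPM in batch 2) and along transcript length. In the class of tested genes with the longest transcripts 19.6% were called higher and 0.0549% lower in batch 2. In the shortest class 0.961% were called higher and 4.56% lower. The batch and the animals of that batch cannot be told apart.

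Malat1, a long nuclear RNA, was at 140.5 ± 17.2 CPM in batch 1 and 1126 ± 801 CPM in batch 2 (mean ± SD, n = 4; log2 difference 2.64, limma adjusted p = 0.00826, and 0.00464 over the pair means). Of 13 mitochondrially encoded genes 9 were called lower in batch 2, against a background of 1.26% of all genes tested and 4.56% of the shortest class. Their median difference was -0.68, and -0.42 relative to genes of like length. Among them mt-Nd3 had 164 ± 86.2 CPM in batch 1 and 58.2 ± 11.2 CPM in batch 2. Of the voltage-gated potassium channel genes tested, 10 of 35 were called higher, and of the TRP genes 3 of 22, with none lower, against a background of 6.84%. These 2 lists hold long transcripts, and their median differences were 0.46 and 0.42, but 0.16 for both relative to the median of genes in the same length class. The non-peptidergic and itch list kept more of its difference than these 2 lists. In that list 8 of 16 genes were called higher, among them P2rx3 (67.3 ± 7.75 against 140.0 ± 24.1 CPM, limma adjusted p = 0.062 over the pair means), Mrgprd, Gfra1, Gfra2 and Il31ra. Sst was called lower. The list's median difference was 0.67, and 0.61 relative to genes of like length, with 15 of 16 members above their length class. It was not alone in this. The 6 opioid and cannabinoid receptor genes had a median of 0.77, and 0.58 relative to genes of like length. For the 45 G protein-coupled receptor genes of pain and itch tested, which include Mrgprd, the values were 0.43 and 0.28. The pan-neuron list had a median of -0.07, with 1 of 20 called higher (Map1b). What a batch number marks is not given in the labels.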

How the data were processed

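RNA of lumbosacral ganglia was prepared as poly-A libraries and sequenced, per the labels' protocols. The authors deposited counts-per-million (CPM) for 55357 Ensembl genes. The submitters' processing notes name Partek, Bowtie2, STAR, HTSeq and mm39, with no versions or roles, and strand use is not given in the sources used here. The CPM steps gave whole reads for 99.8 to 99.9% of values above 0 (tolerance 0.1), from which depth and floors were computed. Transcript lengths came from GENCODE M21 by gene ID, without its coordinates. Sex and batch were tested in 1 limma 3.58.1 fit (R 4.3.3, trend, 2-sided, Benjamini-Hochberg) on log2(CPM + 0.5) for genes averaging 0.5 CPM or more. edgeR 4.0.16 and DESeq2 1.42.0 on recovered reads were alternatives, as were other pseudocounts, filters, scalings, all 16 libraries, leaving out each animal and, between the batches, means of same-numbered animals.

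Deviations from sex means of same-numbered males and females correlated at 0.369, 0.263, 0.372 and 0.167, so the numbers were taken to pair the animals. Male 7 with female 8 (0.271) and male 8 with female 4 (0.181) reached similar values, and other unlike-numbered pairs were at 0.000376 or below. Same-numbered animals also share a batch. With batch means removed too, same-numbered pairs were at 0.314 and 0.247, and unlike-numbered pairs at -0.314 and -0.247. With 2 animals per sex and batch these values must mirror each other, so they cannot settle the pairing. It remains an assumption, as the labels do not say what a number marks. Data were simulated for the sex comparison on 18248 genes, with changes put only into genes averaging 1 CPM or more. In these, 47.3% of 2-fold and 84.3% of 4-fold changes were recovered, and 7.49% of calls were false. Counts were drawn independently for each gene and animal, without the shared muscle, spinal cord or transcript-length differences, so the rates may not hold for the real libraries. Members and gene lists were chosen with earlier results of these data known. Genes were named by rank of level, spread or change within all genes and within each list, with a few fixed genes, and other named members were chosen after their values were seen.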

Additional observations from a re-analysis of the deposited data

Results flagged for a closer look

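Within each sex, a value was picked out when 1 of the 4 animals lay apart from the other 3 by more than Dixon's 95% critical value of 0.829. Of 510 groups checked (48 lists and 207 genes, 2 sexes each), 35 were picked out, and chance gives about 1 in 20.

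Male 3 stood apart in 9 of the 35. Its summed CPM was 1671 for mural genes (766 to 862 in the other 3 males) and 56.0 for bone and cartilage genes (48.4 to 49.2). Des, which is in the mural list and is also a muscle gene, gave 1172 of the 1671 CPM. Muscle genes were high in it, with Des at 1172 CPM (239 to 363 in the other males), Myh1 at 1433 CPM (78.1 to 295), Myh2 at 893 CPM (97.8 to 224) and Cacna1s at 158 CPM (29.4 to 42.0). It was the lowest male for 3 neuronal genes, with Scn11a at 202 CPM (315.3 to 333.5 in the other males), Ret at 433 CPM (652 to 678) and Slc17a8 at 2.84 CPM (6.91 to 7.31). Male 3 also had the highest muscle and spinal cord sums, whose part in these values was not tested.

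Female 3 stood apart in 10. Its sums were 205 CPM for genes of low-threshold and cold C fibres (240.7 to 245.9 in the other females) and 914 CPM for mechanically gated and acid-sensing channels (1076 to 1098). Muscle genes were high in it: Tnnt3 was at 3605 CPM (248.2 to 689.8 in the other females), Myl2 at 261 CPM (0.721 to 13.5), Tnnt1 at 249.8 CPM (2.33 to 10.2), Myl3 at 108 CPM (0.976 to 3.78) and Myh7, a slow-fibre myosin, at 71.9 CPM (0.444 to 1.01). Pvalb was at 1222 CPM (138.5 to 250.5), S100a9 at 1055 CPM (189.8 to 336.2) and Plxnd1 at 179 CPM (242.5 to 254.4).

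Female 4 had a summed 1310 CPM of calcium channel auxiliary genes (1009 to 1036 in the other females). In it Tmem63b was at 216 CPM (160.4 to 166.4), P2rx4 at 59.7 CPM (49.4 to 50.7), P2rx2 at 11.7 CPM (5.96 to 6.72), Pdgfrb at 46.1 CPM (63.8 to 66.9) and Gfral at 0.0915 CPM (0 in the others). Female 7 had a summed 4745 CPM of fibroblast genes (5736 to 5891), Gria2 at 8.79 CPM (2.96 to 3.89), Kdm5c at 71.9 CPM (67.2 to 67.5) and Eif2s3y at 0.297 CPM (0 in the others). Female 8 had Kdm5d at 0.0277 CPM, which is 1 read.

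Male 7 had a summed 313 CPM of sex-linked genes (184 to 192 in the other males), S100b at 585 CPM (687 to 704) and Chga at 303 CPM (347.5 to 351). Male 4 had Grin1 at 91.3 CPM (115.6 to 119.9), and male 8 had Eln at 33.3 CPM (21.9 to 23.6).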

How the results depend on the processing

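The log2 differences of the 10 genes called between the sexes and of 27 genes between the batches kept their sign under the alternatives run. The median difference of all genes did not: between the sexes it went from 0.0662 to -0.00504 with median-of-ratios scaling, -0.00369 with DESeq2 and -0.00648 with edgeR, and between the batches from 0.112 to -0.00444 with that scaling and -0.00994 with DESeq2. The number of genes called between the sexes (10) became 62 with DESeq2 and 6 with edgeR on recovered reads, 6 with a mean of at least 2 CPM, 5 with no filter, 5 with no batch covariate, 4 in batch 1 alone and 5 in batch 2 alone, and 4 without male 3 and female 3. It was 4 to 10 when each animal was left out in turn. With the replicate number as a block it was 7. The number called between the batches (1478) became 6800 with all 16 libraries, 2481 with DESeq2, 698 with edgeR, 910 with median-of-ratios scaling, 546 with no filter, 85 without male 3 and female 3 and 4 with the replicate number as a block, as means of same-numbered animals, and was 65 to 3154 when each animal was left out. The cause of these changes was not tested. The alternatives without male 3 and female 3 and with means of same-numbered animals were chosen after seeing the data. The median spread stayed between 0.284 and 0.311 in the other settings, and was 0.245 as the residual after sex and batch. Length-scaled levels depend on the transcript length taken. With the median in place of the longest length, 128 of 206 gene levels checked moved by at least their SD between animals, counting 5 genes with no read. The ± values of length-scaled levels and ratios give the spread between animals only and do not include this dependence. Counting error alone gives a median SD of 0.372 for genes of 0.5 to 1 CPM against 0.0203 for those of 100 to 1000 CPM.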
